A study of Mus musculus with 6 samples.

Results

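The glucose transporter genes of the mouse nephron were taken by name from a panel of 456 genes counted in single kidney cells. The 6 members were the sodium-coupled transporters Slc5a2, Slc5a1 and Slc5a10 and the facilitative transporters Slc2a2, Slc2a1 and Slc2a4, which is 6 of 456 genes measured. The study gave wild-type C57BL/6J mice aged 16 weeks either furosemide at 70 mg/kg body weight or vehicle for 1 week. All animals ate a gel food with a steady 104 µmol of sodium per kcal, which also carried the drug or its vehicle. Furosemide is a loop diuretic that blocks NKCC2 in the thick ascending limb. The study's title asks how proximal and distal nephron cells adapt to the drug. Kidneys were dissociated and cells were captured with the BD Rhapsody system, giving 3 furosemide and 3 vehicle libraries. Samples are named here by treatment and by the library number of the annotation, furosemide libraries 2, 4 and 6 and vehicle libraries 1, 3 and 5.

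Filtered glucose is taken back from the tubular fluid in the proximal tubule. SGLT2, the product of Slc5a2, takes up glucose with sodium at the luminal side of the early proximal tubule, and SGLT1, the product of Slc5a1, takes up what is left further down. GLUT2, the product of Slc2a2, lets glucose leave proximal cells towards the blood. SGLT5, the product of Slc5a10, carries mannose and fructose rather than mainly glucose. GLUT1, the product of Slc2a1, is the basal glucose transporter of many cells, and GLUT4, the product of Slc2a4, is the insulin-responsive transporter known best from muscle and fat.

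The table held 22154 cells, 11077 of each treatment. Libraries held 3051 to 4439 cells and 4819988 to 7635509 counts, and 196 cell barcodes occurred in more than 1 library. Levels are counts scaled to 1000000 panel counts (CPM) within a library and cell class, so a CPM is a share of the panel and not of the whole transcriptome. They compare classes and treatments within a gene, not genes with each other, because no length correction was possible. The authors' 15 classes are named as in the annotation: TAL is the thick ascending limb, DCT and DCT2 the distal convoluted tubule, CNT the connecting tubule, and AIC and BIC intercalated cells of types A and B. CCD principal and OMCD principal bear the names of principal cells in the cortical and the outer medullary collecting duct. The OMCD principal class went against its name. Its summed CPM of 6 intercalated cell markers stood at 68.5% of the highest class, and that of 5 principal cell markers at 51.2% of the level in CCD principal. It is called by the authors' name only.

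The transporters were spread unevenly over the nephron, in part with shared sites. Slc5a2 and Slc2a2 marked early proximal cells, Slc5a10 late proximal cells, Slc5a1 the TAL, Slc2a1 the collecting duct and Thin Limb, and Slc2a4 intercalated, TAL and distal convoluted cells. The classes were clustered on the panel that holds these genes, so levels between classes are a description and carry no test. With furosemide, 1 of 47 member and class pairs passed edgeR's quasi-likelihood test at a Benjamini-Hochberg adjusted p under 0.05, namely Slc2a4 in DCT, which rose. Over all genes in these classes 1.45% of pairs passed (54 of 3724), so that 1 of 47, or 2.13%, is near the background. A pair that missed the threshold is not thereby shown to be the same in both treatments. The labels list separate samples without saying that each was its own animal, so p-values measure the spread between these libraries, which may be technical.

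**Figure D1:**
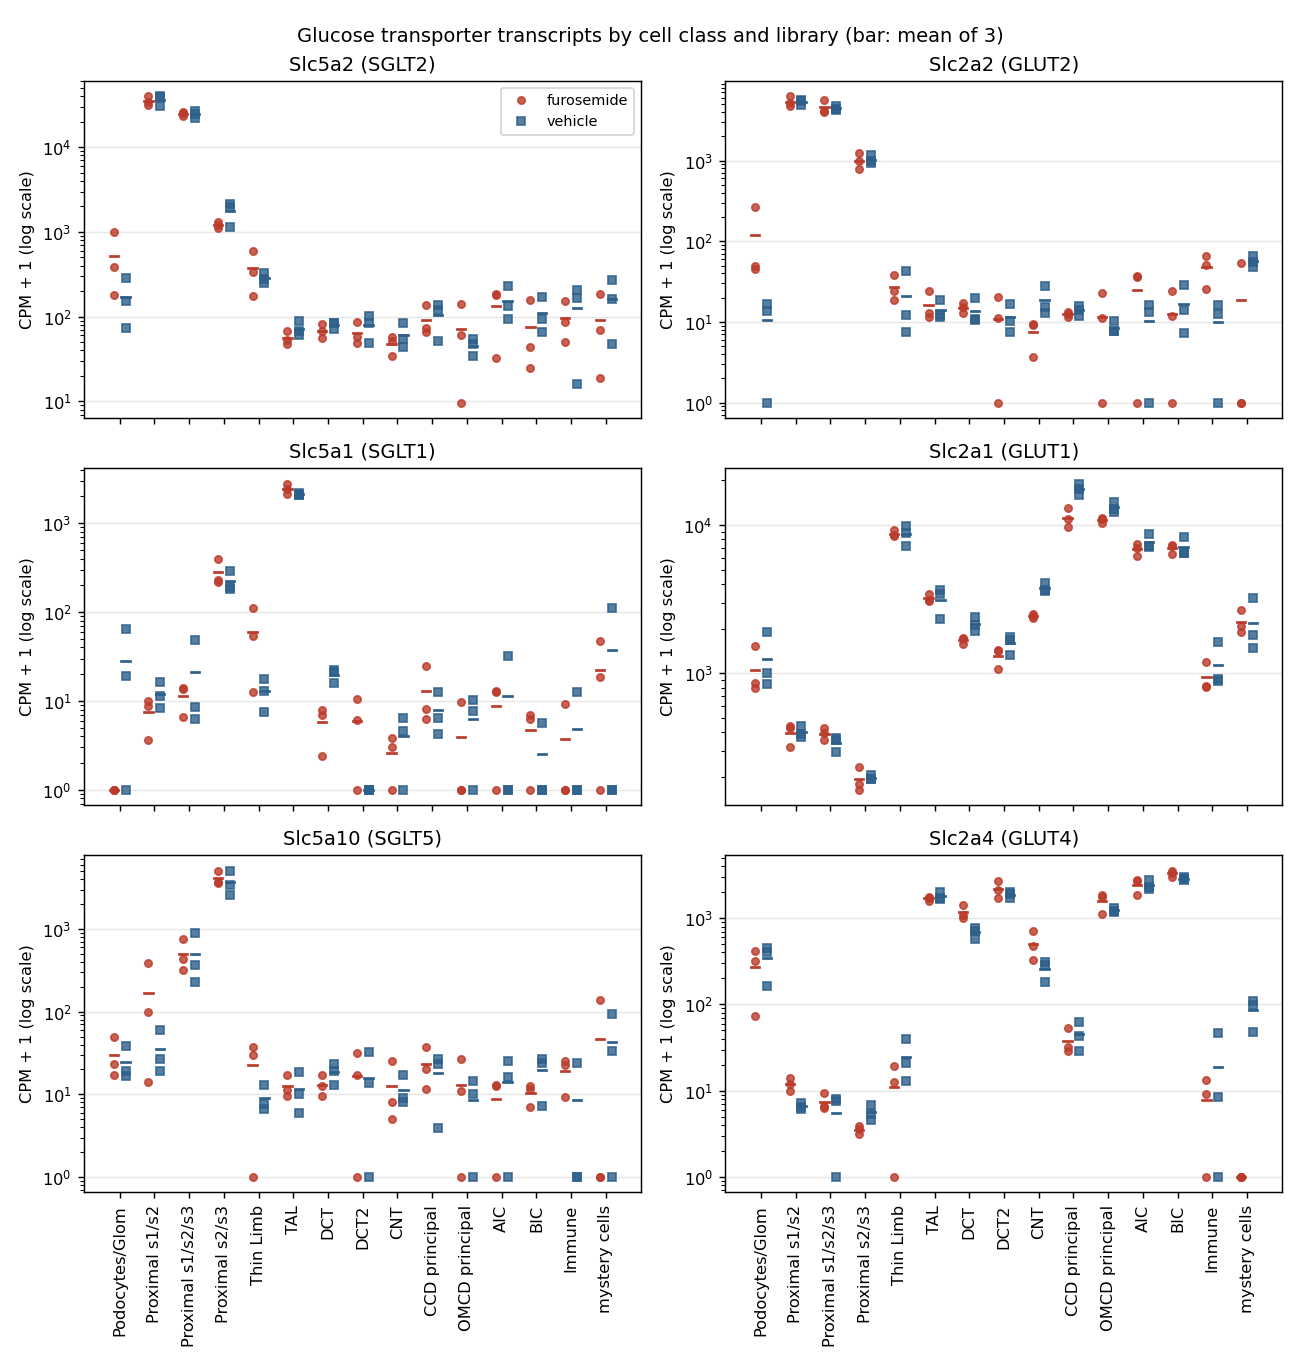
Levels of the 6 transporters in 15 cell classes; the y axis is CPM + 1 on a log scale, the points are libraries (furosemide in red circles left, vehicle in blue squares right) and the short bars are means of 3 libraries. Slc5a2, Slc2a2 and Slc5a10 stand high in proximal classes alone, Slc5a1 in TAL with a lower step in Proximal s2/s3, Slc2a1 in CCD principal, OMCD principal and Thin Limb, and Slc2a4 in BIC, AIC, DCT2 and TAL.

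Slc5a2 stood highest in Proximal s1/s2. It had 33743, 39806 and 31337 CPM in furosemide libraries 2, 4 and 6, against 39746, 31030 and 38628 CPM in vehicle libraries 1, 3 and 5. Libraries of both treatments covered the same span, and the log2 change was -0.09 ± 0.14 (SE; edgeR's quasi-likelihood test, adjusted p = 0.983, where 0 of 273 genes passed). Proximal s1/s2/s3 followed at 69.2% of that level and Proximal s2/s3 at 4.16%, and neighbours in this order did not overlap. In the 3 proximal classes lay 44.1%, 49.3% and 5.88% of all Slc5a2 counts. Elsewhere the level was under 1% of the top class and 6.41% to 24.6% of cells held a count, with 8.08% in TAL, where median depth was 1531 counts per cell with furosemide and 1485 with vehicle. The highest of these shares, 24.6%, was in Thin Limb. The share in TAL, a cell type not known for SGLT2, is taken as the background for the gene.

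In Proximal s2/s3, where 41.4% of cells held a count of Slc5a2, the gene had 1121, 1202 and 1296 CPM in the furosemide libraries, against 2162, 1144 and 1992 CPM in the vehicle libraries. Vehicle library 3 lay among the furosemide libraries, and the log2 change of -0.48 ± 0.26 did not pass (edgeR, adjusted p = 0.837). With each cell thinned to 500 counts, 29.1%, 27.4% and 25.7% of Proximal s2/s3 cells held Slc5a2 with furosemide, against 36.9%, 30.6% and 34.8% with vehicle. All furosemide libraries lay below all vehicle libraries, as did 8.79% of genes either way in this class (two-sided exact permutation, p = 0.1, which is the floor of a test of 3 libraries against 3). Unthinned, the share was 37.8% ± 3.36 with furosemide and 45.5% ± 3.72 with vehicle (SD, n = 3). Over the 90 member and class pairs compared in this way the adjusted p was 0.9. Thinned shares of 10 of 58 member pairs, or 17.2%, did not overlap between treatments, beside 14.8% over all panel genes, again near the background.

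Slc5a1 in the TAL was the largest pool of the SGLT1 transcript in these data, with 86.7% of its counts. It had 2421, 2119 and 2790 CPM in TAL of the furosemide libraries, against 2094, 2075 and 2156 CPM in the vehicle libraries. Furosemide library 4 lay within the vehicle range and the others above it. The log2 change was 0.33 ± 0.18 (edgeR, adjusted p = 0.429, where 4.73% of 317 genes passed) and did not pass. TAL cells with a count, thinned to 500 counts, made up 67.4%, 62.6% and 72.7% in furosemide libraries, against 55.8%, 55.8% and 55.2% in vehicle libraries, which did not overlap, as for 27.3% of genes in TAL (exact permutation, p = 0.1, adjusted p = 0.9). The share in CCD principal, a cell type not known for SGLT1, was 1.39% unthinned. Unthinned they were 91.2% ± 2.09 with furosemide and 78.1% ± 2.96 with vehicle (SD, n = 3). Counts per cell that held the gene were alike, 4.52 with furosemide and 4.53 with vehicle.

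The TAL holds cells that differ in claudins, the proteins of the tight junction, with Cldn16 forming a route for calcium and magnesium and Cldn10 one for sodium. The split below was made with the earlier claudin results of these data known and carries no test. In TAL cells with counts of Cldn10 but not Cldn16, Slc5a1 had 1497, 1217 and 1194 CPM in furosemide libraries, against 732, 660 and 854 CPM in vehicle libraries. Every furosemide library lay above every vehicle library there, where 27.1% of 317 genes did not overlap. In cells with Cldn16 only, Slc5a1 averaged 3013 ± 177 CPM with furosemide and 2665 ± 113 CPM with vehicle (SD, n = 3). Libraries did not overlap there either, at 2899 to 3217 CPM with furosemide and 2582 to 2794 CPM with vehicle. The share of all genes that did not overlap was not computed for that group. In cells with both claudins Slc5a1 averaged 2530 ± 395 and 2594 ± 161 CPM (SD, n = 3), which overlapped. Over both treatments the level in cells with Cldn16 only was 2839 ± 232 CPM and in cells with Cldn10 only 1026 ± 328 CPM (SD, n = 6). Cells with Cldn10 only made up 14.2% ± 1.97 of TAL cells with furosemide and 32.5% ± 3.95 with vehicle. The part of this shift in the TAL level of Slc5a1 was not tested, and a cell's group rests on its depth and on both claudins. Cldn16 had 5042 to 7099 CPM in TAL with furosemide and 3035 to 3282 CPM with vehicle. Cldn10 had 14876 to 17239 CPM in TAL with furosemide and 18420 to 20980 CPM with vehicle. Slc2a4 was level across the claudin groups, at 1778 ± 180 CPM in cells with Cldn10 only and 1799 ± 180 CPM in cells with Cldn16 only. Slc2a1 stood at 4419 ± 904 and 2369 ± 336 CPM.

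**Figure D2:**
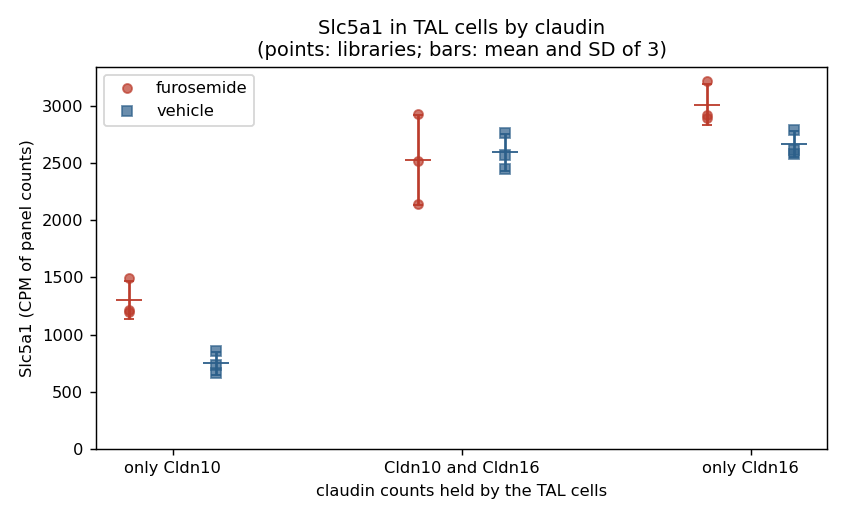
Slc5a1 in TAL cells grouped by which claudin counts they held; the y axis is CPM of panel counts, points are libraries (furosemide red, left; vehicle blue, right) and bars are mean and SD of 3. In cells with Cldn10 only the furosemide libraries lie at 1194 to 1497 CPM and the vehicle libraries at 660 to 854 CPM. In cells with Cldn16 only the treatments do not overlap either (2899 to 3217 against 2582 to 2794 CPM), while in cells with both claudins they do.

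The second site of Slc5a1 was Proximal s2/s3, at 249 ± 78.7 CPM beside 2276 ± 282 CPM in TAL (SD, n = 6), where 32.2% of cells held a count. The share was 0.742% in Proximal s1/s2 and 1.73% in Proximal s1/s2/s3, at median depths of 785 to 823 and 1406 to 1512 counts per cell. In Proximal s2/s3 it had 215, 229 and 392 CPM in furosemide libraries, against 192, 182 and 286 CPM in vehicle libraries. Ranges overlapped, furosemide library 6 and vehicle library 5 being the highest of each treatment (log2 change 0.41 ± 0.28, edgeR, adjusted p = 0.926, where none of 291 genes passed). All other classes stood at or below 1.54% of the TAL level. Summed over all cells of a library, Slc5a1 had 350, 422 and 502 CPM with furosemide, against 567, 587 and 629 CPM with vehicle. These ranges did not overlap, and the share of all genes that did not overlap in this sum was not computed. The log2 change of -0.39 ± 0.17 did not pass (edgeR, adjusted p = 0.334, where 4.46% of genes passed). TAL cells made up 13.3% ± 2.13 of cells with furosemide and 23.7% ± 1.01 with vehicle, and in a sum of all cells fewer cells of a type and less RNA per cell cannot be told apart.

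Slc5a10 was a transcript of late proximal cells, with 92.5% of its counts in Proximal s2/s3. There it had 3609, 3708 and 5071 CPM in furosemide libraries, against 3361, 2596 and 5003 CPM in vehicle libraries. Libraries of 1 treatment differed more than the treatments did, and furosemide library 6 and vehicle library 5 stood highest (log2 change 0.25 ± 0.27, edgeR, adjusted p = 0.926). Proximal s1/s2/s3 stood at 12.8% of this level, with 315, 428 and 757 CPM in furosemide libraries, against 363, 227 and 893 CPM in vehicle libraries, the same libraries being highest. In Proximal s1/s2 the gene had 13.0, 98.3 and 391 CPM with furosemide, against 25.5, 18.4 and 59.6 CPM with vehicle. Its log2 change of 2.37 ± 1.20 in that class was the largest of all 47 pairs and did not pass (edgeR, adjusted p = 0.799), with furosemide library 6 far above the others. In library 6, 12.3% of Proximal s1/s2 cells held both Slc5a2 and Slc5a10, against 1.23% to 2.77% in the other libraries.

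Slc5a2 and Slc5a10 prevailed in different proximal classes, and part of the Proximal s2/s3 cells held both. In Proximal s1/s2 95.3% of cells held Slc5a2 without Slc5a10 unthinned, and 96.5% when thinned to 500 counts. In Proximal s2/s3, thinned to 500 counts, 60.5% ± 4.05 of cells held Slc5a10 without Slc5a2 with furosemide and 51.5% ± 4.55 with vehicle (SD, n = 3), and libraries did not overlap (exact permutation, p = 0.1, with no background over other gene pairs computed). Unthinned these shares were 60.0% ± 3.60 and 52.5% ± 3.31. Cells with both stood at 15.9% ± 2.26 with furosemide and 19.5% ± 4.07 with vehicle when thinned, which overlapped. Unthinned they stood at 28.9% ± 1.02 and 34.4% ± 0.504, which did not. Slc5a1 was found with Slc5a10 in 10.4% ± 3.01 of thinned Proximal s2/s3 cells with furosemide and in 7.80% ± 3.85 with vehicle, and unthinned in 34.3% ± 4.74 and 28.3% ± 2.88, overlapping at both depths. In the authors' second clustering the cluster Proximal sub1 lay between the ends, with Slc5a2 at 9137 ± 695 CPM with furosemide and 11082 ± 1899 with vehicle and Slc5a10 at 1895 ± 1325 and 1427 ± 967 CPM.

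Slc2a2 followed the early proximal pattern of Slc5a2. It had 4769, 5144 and 6256 CPM in Proximal s1/s2 of furosemide libraries, against 4904, 5681 and 5535 CPM in vehicle libraries. The treatments overlapped fully, with a log2 change of 0.0016 ± 0.19 (edgeR, adjusted p = 0.994). Proximal s1/s2/s3 stood at 84.0% of this level and overlapped with it, and Proximal s2/s3 at 18.7%. Every other class stood at or below 1.2%. Of Proximal s1/s2 cells 92.3% held both Slc5a2 and Slc2a2. Furosemide library 6 was the highest library for Slc2a2 in each of the 3 proximal classes.

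In the sum of the 3 proximal classes none of the 6 members passed, and 0.299% of 335 genes did. Slc5a2 had 12021, 10236 and 14252 CPM with furosemide, against 14130, 15123 and 17390 CPM with vehicle, with libraries that overlapped at a single point (log2 change -0.25 ± 0.15, edgeR, adjusted p = 0.727). Slc5a10 had a log2 change of 0.50 ± 0.29 (adjusted p = 0.727) and Slc5a1 of 0.61 ± 0.25 (edgeR, adjusted p = 0.679). Slc2a2 changed by -0.09 ± 0.22, Slc2a1 by 0.06 ± 0.15 and Slc2a4, at 4.85 CPM with furosemide and 4.67 CPM with vehicle, by 0.15 ± 0.39 (edgeR, adjusted p = 0.94 each). Proximal s2/s3 cells made up 23.2% ± 0.939 of cells with furosemide and 17.1% ± 3.91 with vehicle, so the sum held the classes in other proportions. Within the classes the changes of Slc5a2 were -0.09, -8.6e-05 and -0.48, and those of Slc5a10 2.37, 0.01 and 0.25, from Proximal s1/s2 to Proximal s2/s3.

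Slc2a4 rose in DCT with furosemide. It had 1101, 1436 and 998 CPM in furosemide libraries 2, 4 and 6, against 775, 569 and 703 CPM in vehicle libraries 1, 3 and 5. Every furosemide library lay above every vehicle library, a separation either way that 18.5% of genes in DCT showed. The log2 change was 0.88 ± 0.15 (edgeR's quasi-likelihood test, adjusted p = 0.0108), in a class where 13 of 275 genes, or 4.73%, passed, and 2.91% passed upwards. The choice of this gene was made with its change already known. The call was lost without vehicle library 5 (0.85, edgeR, adjusted p = 0.0529), and it held without each of the other 5 libraries, with log2 changes of 0.80 to 0.97. With library size alone it was 0.79 (adjusted p = 0.0389) and with totals without the 5 top genes 0.75 (adjusted p = 0.0275).

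The rise showed both in more DCT cells with the transcript and in more counts per cell. DCT cells without a count of Slc2a4 made up 29.5%, 21.5% and 32.5% in furosemide libraries, against 38.6%, 45.7% and 51.4% in vehicle libraries. Cells with 3 or more counts made up 24.1%, 32.2% and 22.4% with furosemide, against 12.2%, 11.3% and 9.43% with vehicle. On neither measure did the treatments overlap. Median depth was 1334 counts per DCT cell with furosemide and 1318 with vehicle. Thinned to 500 counts, 40.5% ± 5.82 of DCT cells held Slc2a4 with furosemide and 27.3% ± 3.33 with vehicle (SD, n = 3; exact permutation, p = 0.1, adjusted p = 0.9). Of all genes in DCT 20.6% did not overlap on this measure. In Proximal s1/s2/s3, a cell type not known for GLUT4, 0.829% of cells held a count, at median depths of 1406 and 1512.

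**Figure D3:**
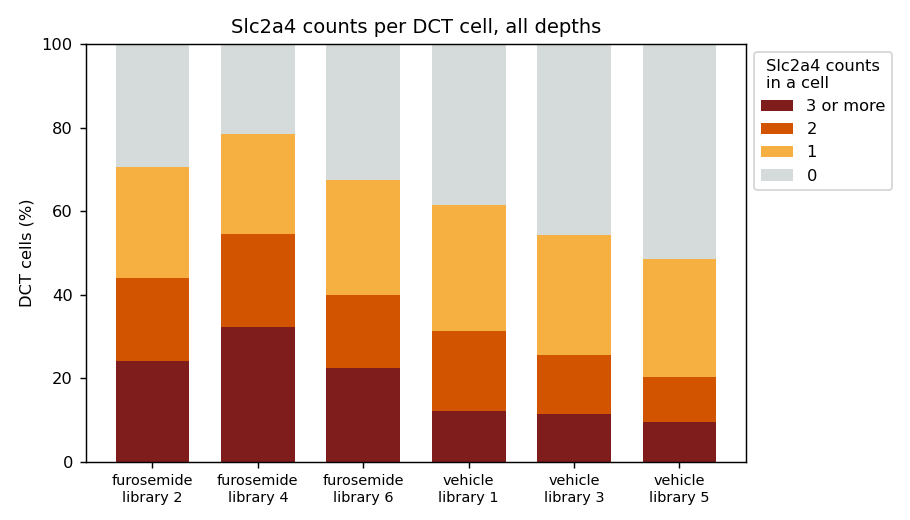
Share of DCT cells (y axis, %) by the number of Slc2a4 counts in the cell, a stacked bar for each library with furosemide libraries left and vehicle libraries right, unthinned. Cells with 3 or more counts make up 22.4% to 32.2% in furosemide libraries and 9.43% to 12.2% in vehicle libraries.

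The same direction was found in both parts of DCT of the second clustering. In the larger cluster, DCT sub1 (1648 cells), Slc2a4 averaged 1166 ± 241 CPM with furosemide and 674 ± 129 CPM with vehicle (SD, n = 3; log2 change 0.87 ± 0.17, edgeR, adjusted p = 0.0142, where 5.54% of genes passed). In DCT sub2 (243 cells) it averaged 1327 ± 221 and 706 ± 122 CPM, which did not pass (0.93 ± 0.24, edgeR, adjusted p = 0.0585, where 2.48% of genes passed). DCT cells with counts of the division genes Birc5 or Mki67 numbered 72. In the 1829 others Slc2a4 averaged 1177 ± 230 CPM with furosemide and 686 ± 107 CPM with vehicle (log2 change 0.88 ± 0.15, edgeR, adjusted p = 0.0159, where 2.94% of genes passed). These fits were added after the data had been seen.

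Markers of neighbouring cells were set beside this change. Calb1, a calcium-binding protein high in DCT2 and CNT, had 37724, 33432 and 54390 CPM in DCT of furosemide libraries, against 23956, 29048 and 25541 CPM in vehicle libraries, and did not overlap. The sum of 4 CNT markers, none of them at 0, was 45113 to 69559 CPM with furosemide and 34119 to 46370 CPM with vehicle, which overlapped. The sum of 12 proximal markers, none at 0, was 2461 to 2841 CPM with furosemide and 2850 to 4295 CPM with vehicle, without overlap. Slc12a3, the thiazide-sensitive cotransporter that defines the segment, overlapped at 92460 to 111157 CPM with furosemide and 88971 to 112878 CPM with vehicle. The sum of 6 thin limb markers, 1 of them at 0, was 30347 to 39372 CPM with furosemide and 22805 to 24748 CPM with vehicle, also without overlap. The part of these markers in the change of Slc2a4 was not tested. For intercalated cells, which hold the highest Slc2a4, the defining anion exchangers Slc4a1 and Slc26a4 were at or below 18.0 CPM in every DCT library. Both belong to the 6 intercalated markers, none at 0, whose sum in DCT was 4163 to 4960 CPM with furosemide. With vehicle this sum was 3797 to 4297 CPM, which overlapped. Other markers of the list held most of it, and the part of intercalated cell RNA in the Slc2a4 values was not tested.

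Outside DCT, Slc2a4 stood highest in BIC, with 3025, 3546 and 3352 CPM in furosemide libraries, against 2962, 2779 and 2852 CPM in vehicle libraries. The treatments did not overlap, as for 20% of genes in BIC, and the log2 change of 0.28 ± 0.14 did not pass (edgeR, adjusted p = 0.472, where 0.408% of genes passed). Marker sums moved with it in BIC without overlap. The sum of 6 intercalated markers, none at 0, was 192254 to 209393 CPM with furosemide and 174887 to 180144 CPM with vehicle, and that of 6 thin limb markers, none at 0, was 88950 to 96390 CPM with furosemide and 77426 to 82945 CPM with vehicle. Lower with furosemide were 12 proximal markers (1 at 0; 1656 to 2700 CPM with furosemide and 3040 to 5207 CPM with vehicle) and 6 DCT markers (1 at 0; 5778 to 6316 CPM with furosemide and 6626 to 6990 CPM with vehicle). Their part in the BIC value was not tested. AIC stood at 78.8% of the BIC level, DCT2 at 65.5%, TAL at 56.4%, OMCD principal at 45.4%, DCT at 30.1% and CNT at 12.3%, and each neighbour in this order overlapped with the next. TAL held 52.0% of all Slc2a4 counts. CCD principal, next to CNT along the tubule, stood at 1.31%. In TAL Slc2a4 had 1578, 1770 and 1733 CPM in furosemide libraries, against 1983, 1663 and 1721 CPM in vehicle libraries. These ranges overlapped (log2 change 0.03 ± 0.13, edgeR, adjusted p = 0.9). In DCT2 it had 2097, 2697 and 1705 CPM in furosemide libraries, against 2022, 1690 and 1925 CPM in vehicle libraries (0.06 ± 0.16, edgeR, adjusted p = 0.924, where 1.42% of genes passed).

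In CNT, Slc2a4 had 476, 705 and 327 CPM in furosemide libraries, against 285, 309 and 183 CPM in vehicle libraries. All furosemide libraries lay above all vehicle libraries, where 24.2% of genes did not overlap, and the log2 change of 1.06 ± 0.28 did not pass (edgeR, adjusted p = 0.0726, where 5.08% of 256 genes passed). It passed with RLE size factors (1.08, adjusted p = 0.0498), with DESeq2 (1.08, adjusted p = 0.00743) and in edgeR without furosemide library 6 (1.19, adjusted p = 0.0497). Of CNT cells thinned to 500 counts, 21.2% ± 4.88 held Slc2a4 with furosemide and 11.8% ± 4.55 with vehicle (SD, n = 3; exact permutation, p = 0.1, adjusted p = 0.9, where 16.7% of genes did not overlap). CNT cells were deeper with furosemide, with a median of 1994 counts against 1541 with vehicle. In CNT, Slc12a3 of the distal convoluted tubule had 326, 352 and 384 CPM with furosemide, against 119, 81.8 and 37.7 CPM with vehicle. Calb1 in CNT had 37607, 43869 and 50790 CPM in furosemide libraries, against 11910, 18460 and 11493 CPM in vehicle libraries. The sum of 6 DCT markers, 1 at 0, was 6680 to 8806 CPM with furosemide and 3991 to 6065 CPM with vehicle. That of 6 intercalated markers, none at 0, was 23956 to 27303 CPM with furosemide and 27692 to 34839 CPM with vehicle. The sum of 12 proximal markers, 1 at 0, was 1188 to 1658 CPM with furosemide and 1907 to 3157 CPM with vehicle. That of 6 immune markers, none at 0, was 507 to 959 CPM with furosemide and 350.1 to 447 CPM with vehicle. Among these immune markers Cd8a had its highest class mean in CNT itself, at 490 CPM. The immune sum in CNT therefore does not stand for immune cells alone. None of these gene levels and sums overlapped between treatments, and their part in the value of Slc2a4 was not tested. The sum of 4 CNT markers, Calb1 among them and none at 0, did overlap in CNT. It was 349810 to 504766 CPM with furosemide and 363995 to 439182 CPM with vehicle.

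Whether the effect on Slc2a4 differed between classes was tested with an interaction term, blocking on library. The effect on Slc2a4 in DCT exceeded that in TAL by 0.78 ± 0.16 on the log2 scale (edgeR, adjusted p = 0.0144, where 9.65% of 311 genes passed). It exceeded that in DCT2 by 0.78 ± 0.13 (edgeR, adjusted p = 0.029, where 0.758% of 264 genes passed). The difference from TAL missed the threshold without vehicle library 1, 3 or 5 or furosemide library 2 (0.72 to 0.88, edgeR, adjusted p = 0.0522 to 0.0759). The difference from DCT2 missed it without any of the 6 libraries but vehicle library 5 (0.68 to 0.83, edgeR, adjusted p = 0.0637 to 0.167) and with library size alone (0.59, adjusted p = 0.0938). Against CNT the difference was -0.34 ± 0.26 (edgeR, adjusted p = 0.602, where 0.997% of genes passed). It was 1.29 ± 0.44 against CCD principal (edgeR, adjusted p = 0.224, where 0 of 318 genes passed). Against the summed proximal classes it was 0.52 ± 0.33 (edgeR, adjusted p = 0.511, where 0.283% passed).

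**Figure D4:**
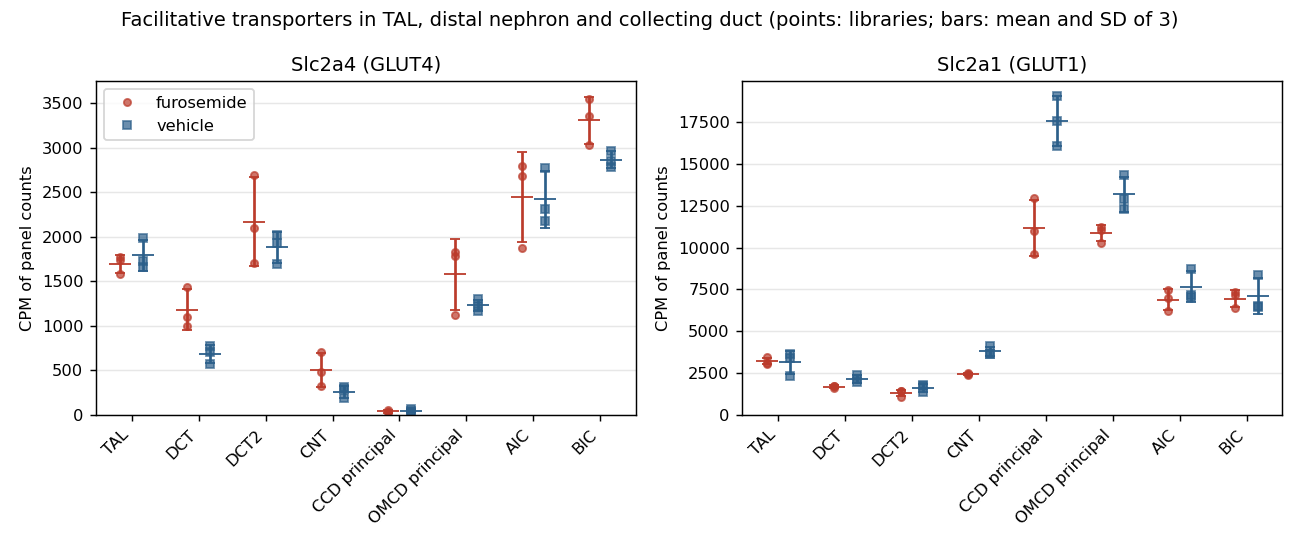
Slc2a4 (left) and Slc2a1 (right) in TAL, distal and collecting duct classes; the y axis is CPM of panel counts from 0, points are libraries (furosemide red, left; vehicle blue, right) and bars are mean and SD of 3. Slc2a4 libraries separate in DCT (998 to 1436 against 569 to 775 CPM), CNT and BIC, and Slc2a1 libraries in DCT, CNT, CCD principal and OMCD principal, where furosemide is lower.

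Slc2a1 stood highest in CCD principal, and its levels there were lower with furosemide in every library. It had 10968, 9648 and 12968 CPM in furosemide libraries, against 16054, 19056 and 17601 CPM in vehicle libraries. The lowest vehicle library lay above the highest furosemide library, and 23.5% of genes in the class did not overlap. The log2 change was -0.62 ± 0.14 (edgeR, adjusted p = 0.0937) and did not pass in a class where none of 281 genes did and 53, or 18.9%, had an unadjusted p under 0.05. With DESeq2 it passed (-0.64, adjusted p = 0.00802). Nearly all cells held the gene in both treatments, 99.4% ± 0.565 with furosemide and 99.7% ± 0.441 with vehicle, with 16.4 counts per positive cell with furosemide and 27.0 with vehicle. CCD principal cells of furosemide libraries held 14366 to 24250 CPM of 4 CNT markers, against 5848 to 10759 CPM in vehicle libraries, without overlap and with none of the markers at 0. The sums of TAL markers (8, none at 0; 13897 to 14672 CPM with furosemide and 12261 to 13509 CPM with vehicle) and thin limb markers (6, none at 0; 23482 to 25941 CPM with furosemide and 30981 to 34524 CPM with vehicle) did not overlap either. The sum of 6 DCT markers, 1 at 0, was 1796 to 2046 CPM with furosemide and 1217 to 1458 CPM with vehicle. Fxyd4, a sodium pump subunit of principal cells, had 58173 to 61925 CPM with furosemide and 70694 to 80349 CPM with vehicle. Scnn1g, another principal cell marker, went the other way, with 8962 to 11335 CPM with furosemide and 7598 to 8411 CPM with vehicle. The sum of 5 principal cell markers, both of these among them and none at 0, overlapped. It was 183818 to 206498 CPM with furosemide and 174920 to 195550 CPM with vehicle. CNT cells have a lower Slc2a1 level than CCD principal cells, and the part of these marker shifts was not tested.

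Towards the distal convoluted tubule the same direction was found at lower levels. In CNT Slc2a1 had 2513, 2444 and 2359 CPM in furosemide libraries, against 3662, 3615 and 4099 CPM in vehicle libraries. These did not overlap (log2 change -0.46 ± 0.14, edgeR, adjusted p = 0.0936), and the value passed with totals without the 5 top genes (-0.58, adjusted p = 0.0364). In DCT it had 1582, 1713 and 1738 CPM in furosemide libraries, against 2400, 2118 and 1931 CPM in vehicle libraries, also without overlap (-0.26 ± 0.14, edgeR, adjusted p = 0.507). OMCD principal had 11054, 10305 and 11235 CPM in furosemide libraries, against 12906, 14368 and 12322 CPM in vehicle libraries (-0.23 ± 0.14, edgeR, adjusted p = 0.487). These did not overlap, as for 15.6% of genes there. The sum of 8 TAL markers, none at 0, was 17610 to 21766 CPM with furosemide and 16491 to 17287 CPM with vehicle in this class, and that of 6 immune markers, 1 at 0, was 70.3 to 173 CPM with furosemide and 242 to 1114 CPM with vehicle. Neither overlapped, and their part was not tested. DCT2 overlapped at 1074 to 1439 CPM with furosemide and 1339 to 1750 CPM with vehicle (-0.42 ± 0.18, edgeR, adjusted p = 0.422). In total 7 of the 47 tested member pairs, or 14.9%, did not overlap in CPM, beside 16.3% over all genes, and these were Slc2a1 in 4 classes and Slc2a4 in 3.

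In Thin Limb Slc2a1 stood at 60.5% of the CCD principal level, in AIC at 50.5%, in BIC at 48.9% and in TAL at 22.0%. In each of these 4 classes the treatments overlapped, with log2 changes of -0.20 ± 0.21, -0.0048 ± 0.18, 0.04 ± 0.15 and 0.15 ± 0.21. The lowest level was in Proximal s2/s3, at 1.36% of the CCD principal level, with a count in 28.5% of cells. Summed over all cells, Slc2a1 had 2188, 2386 and 2175 CPM in furosemide libraries, against 3115, 3372 and 2494 CPM in vehicle libraries (-0.33 ± 0.15, edgeR, adjusted p = 0.368).

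Slc2a1 and Slc2a4 had log2 changes of opposite sign in DCT and CNT, of which Slc2a4 in DCT passed, and the difference between the genes was not tested. Of DCT cells thinned to 500 counts, 18.4% ± 3.60 held Slc2a4 without Slc2a1 with furosemide and 10.7% ± 0.564 with vehicle (SD, n = 3). Those with Slc2a1 without Slc2a4 made up 31.7% ± 3.62 with furosemide and 46.8% ± 4.33 with vehicle. In CNT Slc2a1 without Slc2a4 was found in 55.0% ± 2.06 of cells with furosemide and in 67.3% ± 2.58 with vehicle. For each of these 3 shares the libraries did not overlap (exact permutation, p = 0.1), and no background over other gene pairs was computed. Slc2a4 without Slc2a1 in CNT overlapped, at 8.65% ± 3.99 with furosemide and 4.19% ± 1.49 with vehicle (exact permutation, p = 0.2). In DCT2 the cells with Slc2a4 without Slc2a1 made up 34.8% ± 1.39 with furosemide and 34.6% ± 3.23 with vehicle.

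**Figure D5:**
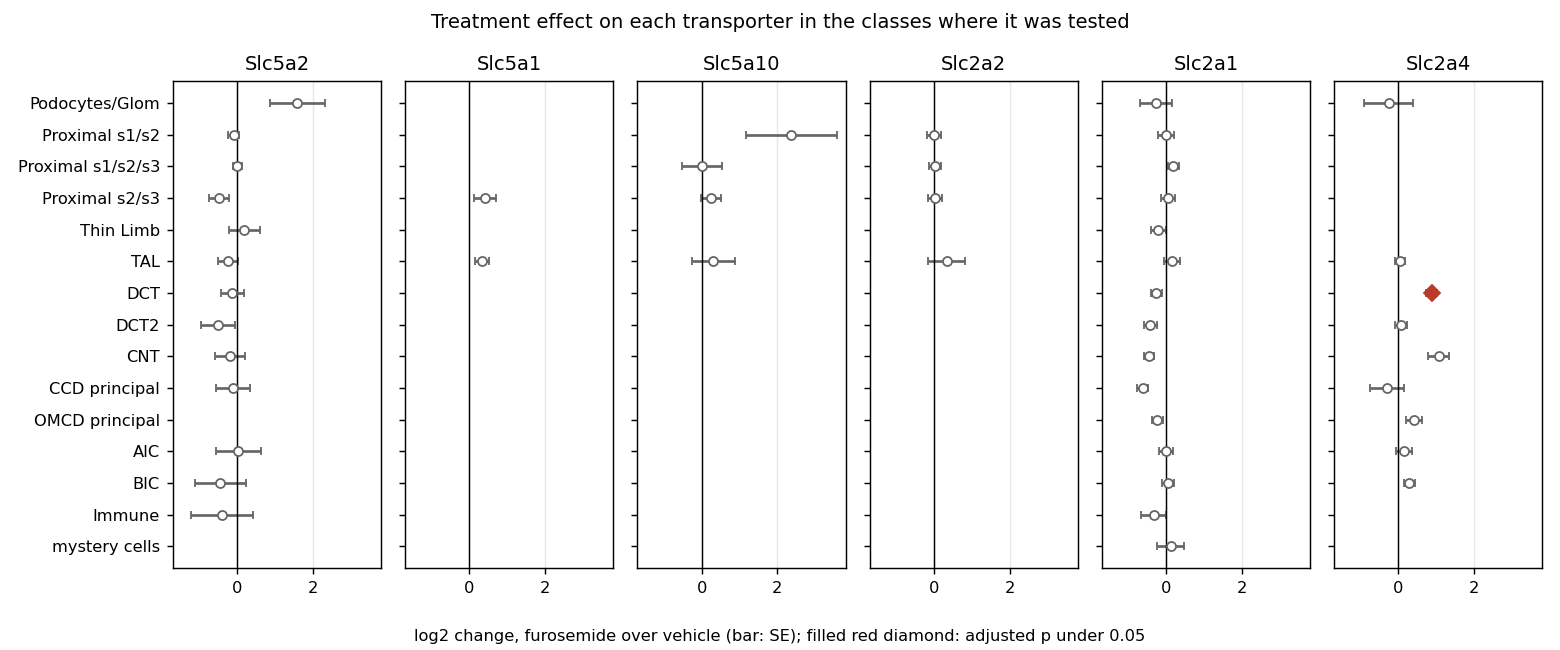
Log2 change of each transporter, furosemide over vehicle (x axis, bars are SE), in the classes (rows) where it passed the filter on low counts, from edgeR's quasi-likelihood fit. The filled red diamond marks Slc2a4 in DCT, the 1 called pair of 47; open circles did not pass, among them Slc2a4 in CNT at 1.06 and Slc2a1 in CCD principal at -0.62.

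Not every member could be tested everywhere. Slc2a1 passed the filter on low counts in 15 classes, Slc5a2 in 13, Slc2a4 in 9, Slc5a10 and Slc2a2 in 4 each and Slc5a1 in 2. In DCT, besides Slc2a4 and Slc2a1, Slc5a2 was tested near its background level (67.4 ± 12.8 CPM with furosemide and 78.4 ± 7.34 with vehicle; log2 change -0.12 ± 0.29, edgeR, adjusted p = 0.906). Over the 47 pairs 25 changes were positive and 22 negative, and 5 had an unadjusted p under 0.05, beside 11.9% of all pairs of genes and classes.

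Other genes of sugar handling in the panel did not pass in DCT. The list of other sugar transporters and partners had 1 of 17 genes in the panel, Pdzk1ip1, a membrane protein known to associate with SGLT2, which changed by 0.04. Of 3 genes of gluconeogenesis, 1 of glycolysis (Pfkm, 0.15), 9 of insulin and IGF signalling, 5 of sodium-driven proximal transport, 4 of the sodium pump, 4 hypoxia targets and 6 transcription factors tested in DCT, none passed. Nearest was the sodium pump subunit Fxyd4, with 42.6 ± 29.7 CPM with furosemide and 138 ± 26.0 CPM with vehicle (log2 change -1.60 ± 0.40, edgeR, adjusted p = 0.0521). Their median log2 changes ran from -0.15 (insulin and IGF signalling) to 0.27 (sodium pump), beside -0.02 over all 275 genes tested. The insulin receptor Insr had a log2 change of -0.42 (edgeR, adjusted p = 0.416), with 128 ± 2.76 CPM with furosemide and 184 ± 22.6 CPM with vehicle. Pdk1, a pyruvate dehydrogenase kinase, had a log2 change of 0.15 (edgeR, adjusted p = 0.831). By list, in the order above, 1, 3, 1, 11, 5, 4, 4 and 6 genes were tested in TAL. In CNT these numbers were 1, 3, 1, 7, 3, 4, 4 and 3. None of the list genes passed in CCD principal, where 0 of 281 genes did, or in the summed proximal classes, where 0.299% of 335 did. Of the same lists 3 genes fell in TAL, where 4.73% of 317 genes passed, and 1 in CNT, where 5.08% of 256 did. In TAL these were G6pc of gluconeogenesis (148 ± 28.4 CPM with furosemide and 563 ± 159 CPM with vehicle; log2 change -1.80, edgeR, adjusted p = 0.0177), the sodium pump subunit Fxyd2 (-1.26, adjusted p = 0.0061) and the nuclear receptor Nr0b2 (-0.58, adjusted p = 0.0358). In CNT it was Fxyd4 (5877 ± 467 CPM with furosemide and 10853 ± 1528 CPM with vehicle; -0.70, edgeR, adjusted p = 0.0389).

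Likeness was measured as Pearson's r of log2(CPM + 1) over the 15 class means, which share libraries and depth, and is given as a description. Slc5a2 was most like Spp2, the neutral amino acid transporter Slc6a19 and Slc2a2 (r = 0.99, 0.98 and 0.97). Among the genes most like Slc2a2 were Pck1 and Glyat (0.99 each), genes of gluconeogenesis and glycine conjugation. Slc5a10 was most like Kap, the organic anion transporter Slc22a6 and Cyp2e1 (0.96, 0.94 and 0.93). Slc5a1 had weaker partners, the sodium-proton exchanger Slc9a3, Pappa2 and Cldn10 (0.75, 0.73 and 0.72). For Slc2a1 they included Lgals3 and Ifrd1 (0.91 and 0.88). Slc2a4 was most like Bsnd, a subunit of chloride channels, and Pdk1 (0.92 each).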

How the data were processed

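The authors deposited whole-number counts per cell and gene for 456 panel genes, and an annotation with other values per cell (library, treatment, 15 classes, a second clustering of 22 clusters). Per the labels' protocols, BD Rhapsody whole-transcriptome and targeted libraries were made; Bowtie2 2.2.9 is the tool named per the submitters' processing notes. Build, counting step, and the nature of a count (molecule or read) are not given in the sources used here. File names say that doublets were removed and cell numbers made equal. No further cell filter was applied.

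Counts were summed per library and class (smallest sum 12 cells, minimum 10) and each class was fitted over all its genes with edgeR 4.0.16 in R 4.3.3 (TMM, filterByExpr, robust quasi-likelihood fit; adjusted p under 0.05). SE is the absolute log2 change over the square root of F. The fit was checked on simulated data with 40 changed genes. Interactions used the library as a block. For shares of cells, each cell was thinned to 500 counts, which left 10529 furosemide and 10342 vehicle cells, and libraries were compared by exact permutation over 20 assignments. Counting precision follows the 4819988 to 7635509 counts per library; reads amplified by PCR are not independent molecules. Alternatives used DESeq2 1.42.0 and limma 3.58.1.

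Members and lists were chosen with earlier results of these data known. Named by rule were each member in its highest class, in DCT, in the summed proximal classes and where called, list genes called in DCT, and the 3 most alike genes, of which some are not reported here. Other genes and pairs were named after their values were seen.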

Additional observations from a re-analysis of the deposited data

Results flagged for a closer look

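The log2 effect of furosemide on Slc2a4 in DCT minus that in TAL was 0.78 ± 0.16 (edgeR interaction, adjusted p = 0.0144), in a contrast that 9.65% of 311 genes passed. It missed the threshold without 4 of the 6 libraries (vehicle libraries 1, 3 and 5 and furosemide library 2; 0.72 to 0.88). The effect in DCT minus that in DCT2 was 0.78 ± 0.13 (edgeR interaction, adjusted p = 0.029, where 0.758% of 264 genes passed). It missed the threshold without 5 of the 6 libraries, all but vehicle library 5 (0.68 to 0.83), and with library size alone (0.59).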

How the results depend on the processing

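Slc2a4 in DCT kept its direction under every alternative run. Without each library in turn its log2 change was 0.80 to 0.97, and in DCT sub2 alone, added later, 0.93 (edgeR, adjusted p = 0.0585). The number of called member and class pairs, 1, became 2 with RLE size factors, 2 with totals without the 5 top genes, 3 with DESeq2 and 0 to 2 without each library (0 without vehicle library 5). Without each library the Slc2a4 effect in DCT minus TAL was 0.70 to 0.88 and that minus DCT2 was 0.68 to 0.83; with library size alone the difference from DCT2 was 0.59. Pairs with separate thinned shares were 13 to 18 when a library was left out, which by construction makes separation easier. With mean counts per cell 3 of 6 members kept their highest class; Slc5a2 and Slc2a2 moved to Proximal s1/s2/s3 and Slc2a1 to OMCD principal. Depth limits rare transcripts such as Slc5a1 in DCT, at 1 to 3 counts in furosemide libraries. 4 uncalled values changed sign. Slc2a2 in Proximal s1/s2 was -0.0046 with RLE, -0.022 with cell numbers as library size, -0.017 with totals without the 5 top genes, -0.0045 with DESeq2, -0.025 with limma-voom, -0.0090 without filter, -0.026 with equal cell numbers, -0.038 thinned, -0.0076 without the top 5% of totals and -0.0014 in the second clustering, and -0.19 to 0.099 without each library. Slc2a1 in the summed proximal classes was -0.033 with library size alone, -0.050 with cell numbers as library size, and -0.037 to 0.21 without each library. Slc2a2 there was 0.012 with equal cell numbers and -0.34 to 0.062 without each library, and Slc2a4 there -0.13 to 0.39 without each library. None of these 4 was called, and the cause was not tested.
No paired analysis was possible because library numbers of the cells could not be joined to the replicate numbers of the sample titles.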

Other observations

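Slc5a1 was too low in DCT for a test of its own there. It had 30 counts in 1901 cells (3, 1 and 3 in furosemide libraries 2, 4 and 6, and 10, 9 and 4 in vehicle libraries 1, 3 and 5), or 4.73 ± 2.91 CPM with furosemide and 18.8 ± 3.29 CPM with vehicle (SD, n = 3), at 0.516% of its TAL level. Slc12a1, the TAL cotransporter, stood at 122, 198 and 145 CPM in DCT of furosemide libraries, against 324, 470 and 361 CPM in vehicle libraries. The part of TAL RNA in the Slc5a1 values was not tested.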
